A study of Drosophila melanogaster with 2 samples.

Results

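REPTOR peaks were examined at 10 Drosophila melanogaster genes that encode insulator and promoter architecture factors: Chro, BEAF-32, CTCF, Cp190, su(Hw), mod(mdg4), Dref, M1BP, pzg and pita. They were 10 of 13945 protein-coding genes on the nuclear arms. The genes were chosen by their function and with peak signals of these data already known, so their peak counts, signals and ranks are given as a description, without tests. The data came from ChIP-seq of whole embryos collected 0 to 24 h after laying, with both sexes pooled. In the only group, the embryos carried a transgene in which GFP is fused to the C-terminal end of CG13624 (REPTOR), a bZIP transcription factor below the TORC1 kinase, and GFP was immunoprecipitated. The group had 2 biological replicates, numbered 1 and 3 in the labels, and the embryos were of 1 transgenic line, whose driver and copy number the labels do not give. No condition was compared, and a whole embryo mixes all tissues, so no peak can be given to a cell type. The authors' optimal list on dm6, selected for calls that both replicates rank alike, held 5321 peaks with signals from 77.9 to 2773 (median 125), and each replicate list held 30000 calls. The lists state no number of reads. The signal is the caller's own value per peak, so it ranks peaks within a list.

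Insulators are DNA elements that separate neighbouring regulatory domains. In flies, su(Hw), CTCF, BEAF-32 and pita are DNA-binding proteins that mark such elements, and Cp190 and mod(mdg4) are BTB-domain proteins that they recruit. Chro (Chromator) and pzg (Z4) act together in the open chromatin between polytene bands, where housekeeping promoters lie. Dref binds the DNA replication-related element (DRE) of those promoters, M1BP binds the core promoter element Motif 1, and BEAF-32 recognises clusters of the CGATA core, which overlaps the DRE.

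REPTOR peaks lay at the promoters of 9 of the 10 genes, with the exception of su(Hw). A promoter peak means an optimal summit within 1000 bp of any transcription start site (TSS) of the gene, and 30.3% of all protein-coding genes had one (4226 of 13945, exact Clopper-Pearson 95% interval 29.5 to 31.1, counting error only). Within 5000 bp of the gene body, 9 of 10 had a summit, against 55.3% of all protein-coding genes. The 9 genes held 13 promoter summits and 8 further summits within 5000 bp. Since the genes were picked with these peaks known, the counts carry no support beyond the genes themselves.

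**Figure D1:**
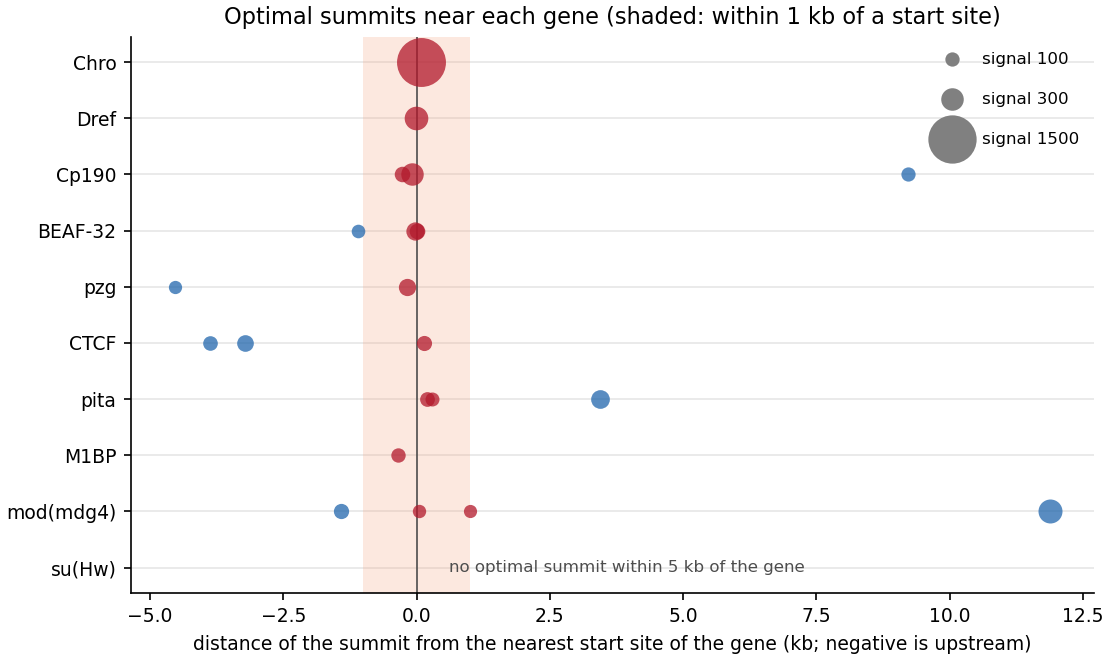
Position of each of the 21 optimal summits near the 10 genes (horizontal axis: distance from the nearest start site of the gene in kb, negative upstream; point area grows with peak signal). The 13 promoter summits (red) lie inside the shaded zone of 1 kb, the other 8 (blue) outside it, and su(Hw) has none.

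Sequences at or beside the summits are shown here because several of the factors have binding sites that can be read from the DNA. Each is on the strand of the named gene, 5′ to 3′, from the Release 6 (dm6) genome of RefSeq, and capitals mark matches to CGATA (read as TATCG on the other strand), to the DRE (TATCGATA) or to the CRE half-site of bZIP factors (TGACGT, read as ACGTCA on the other strand). The windows at Chro and pzg are 29 bases around the summit, since these summits lie in 5′ UTRs. The window at Chro is chr3L:22878880-22878908 and that at Dref is chr2L:9967201-9967281. The windows at Cp190, pzg and CTCF are chr3R:15275225-15275359, chr3L:21285903-21285931 and chr3L:7356507-7356572. Those at the promoter and at an internal peak of mod(mdg4) are chr3R:21377384-21377484 and chr3R:21365459-21365557. The mod(mdg4) promoter window starts upstream of the TSS and ends before the summit (21377364), which lies in the 5′ UTR, so a CRE half-site nearer to that summit is not shown in full.
Chro: ttagtttaaagcTATCGacaggcaataca
Dref: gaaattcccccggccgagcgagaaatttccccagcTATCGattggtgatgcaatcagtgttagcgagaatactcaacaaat
Cp190: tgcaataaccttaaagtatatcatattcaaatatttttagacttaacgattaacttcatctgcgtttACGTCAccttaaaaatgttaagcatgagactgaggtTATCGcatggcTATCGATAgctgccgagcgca
pzg: caagtaaataattacgtTATCGtaatgaa
CTCF: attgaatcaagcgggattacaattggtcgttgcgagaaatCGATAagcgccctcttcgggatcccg
mod(mdg4) promoter: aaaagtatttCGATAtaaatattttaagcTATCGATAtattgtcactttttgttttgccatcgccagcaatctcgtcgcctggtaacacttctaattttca
mod(mdg4) internal: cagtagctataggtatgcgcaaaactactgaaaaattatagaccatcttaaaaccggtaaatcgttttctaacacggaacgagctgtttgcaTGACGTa

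Chro had by far the strongest peak of the set. Its single promoter peak (FBgn0044324, 3L, 22878670 to 22879137) had a signal of 1542 and ranked 9 of the 5321 optimal peaks. It ranked 10 in replicate 1 (signal 755) and 7 in replicate 3 (signal 785), so both replicates placed it near the top. With replicate 1 left out, a weak call at an inner start site (rank 4940 in replicate 3, 50 bp inside the gene from that TSS) made 2 promoter summits in place of 1; in the pooled calls it ranked 9536, outside the optimal list. The signal was 4.63 times that of the next gene of the set. The summit lay 90 bp inside the gene, in the 5′ UTR, among 3 annotated TSSs. It was 195 bp upstream of the TSS of Ssl1, a subunit gene of the general transcription factor TFIIH, whose head-to-head start site is 105 bp from that of Chro. The genes whose strongest promoter peak was closest to that of Chro in log2 signal over the 2 replicates were Lk6 (distance 0.12) and the gene pair Gprk2 and PNPase, which share 1 peak (0.13). Lk6 encodes the kinase that phosphorylates eIF4E, Gprk2 a G protein-coupled receptor kinase, and PNPase an RNA-degrading enzyme of mitochondria.

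Among the partners of Chro, pzg and the BTB protein gene Cp190 both had promoter peaks. The peak at pzg (FBgn0259785, 3L, 21285699 to 21286134) had a signal of 162 and ranked 1659, with ranks of 1302 and 1823 in replicates 1 and 3 (signals 93.6 and 80.4). Its summit was 182 bp upstream of the pzg TSS and only 45 bp from the TSS of the head-to-head gene CG12974, in whose 5′ UTR it lay. The start sites of the 2 genes are 137 bp apart, and by nearest start site the peak belongs to CG12974. A second, weaker optimal summit (signal 81.3, rank 5033), 4535 bp upstream of pzg, was 58 bp from the TSS of ppl.

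Cp190 (FBgn0000283) had 2 summits in 1 peak interval (3R, 15275202 to 15275566), in the intergenic stretch of 281 bp that it shares with CG4338. The stronger summit was 78 bp upstream of the Cp190 TSS, with a signal of 298 and a rank of 501. It ranked 380 in replicate 1 (signal 168) and 595 in replicate 3 (signal 143). The weaker one had a signal of 124 and a rank of 2671, and lay 280 bp upstream of Cp190 and 1 bp from the TSS of CG4338. Matched by summits within 100 bp, it ranked 3595 in replicate 1 and 1893 in replicate 3. Each of the 2 divergent start sites therefore had its own summit, with the stronger nearer to Cp190. A further summit within 5000 bp (signal 98.9) was at the TSS of ATPsynO, an ATP synthase subunit gene.

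At mod(mdg4) (FBgn0002781, 26556 bp), the strongest peak lay deep inside the gene and not at its own promoter. This gene gives rise to many protein isoforms by trans-splicing, in which a common 5′ part is joined to variable 3′ exons that are transcribed separately from within the locus, some from the opposite strand. At the common promoter the peak was weak: a summit 37 bp inside the gene (3R, 21377146 to 21377581) had a signal of 83.0 and a rank of 4901, with ranks of 6139 and 4161 in replicates 1 and 3. The overlapping call in replicate 1 had its own summit 139 bp away. A summit 994 bp inside the gene had a signal of 80.1, with ranks of 8375 and 3448. Both summits were close to the end of the optimal list, and replicate 1 ranked both below its first 5321 calls. The strongest peak of the locus (3R, 21365391 to 21365647) had a signal of 345, 4.15 times that at the promoter, and ranked 340. Its ranks of 412 in replicate 1 and 314 in replicate 3 were close to each other. It lay 11884 bp inside the gene, in an intron, 29 bp upstream of the TSS of pre-mod(mdg4)-E. Within 1000 bp of it were the annotated start sites of 10 of these separately transcribed parts, 7 on the plus strand and 3 on the minus strand. The remaining summit (signal 119), 1419 bp upstream of mod(mdg4), was 157 bp from the TSS of tin, a heart and muscle determinant.

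Of the DNA-binding insulator proteins among the 10 genes, BEAF-32 had the strongest promoter peak and su(Hw) had none. BEAF-32 (FBgn0015602, 2R) has several start sites that give isoforms with different DNA-binding ends, and it had peaks at 2 of them. The summit 28 bp upstream of its first TSS (14770343 to 14770524) had a signal of 186 and a rank of 1293, with ranks of 1130 and 1618 in replicates 1 and 3. The summit 11 bp inside the last start site (14771094 to 14771529) had a signal of 128 and a rank of 2549, with ranks of 2194 and 2896. Both replicates ranked the first start site above the last. The antisense RNA gene asRNA:CR42254 also starts near both summits, and peaks carry no strand.

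CTCF (FBgn0035769) had 1 promoter peak (3L, 7356349 to 7356784) with a signal of 116 and a rank of 2939, 146 bp inside the gene in its intron. Its ranks of 3960 in replicate 1 (signal 48.7) and 2287 in replicate 3 (signal 70.7) were further apart than those of Chro, Dref or Cp190. Another peak near the gene was stronger (signal 149, rank 1956), but lay 3212 bp upstream of CTCF and 191 bp from the TSS of pst.

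The zinc finger gene pita (FBgn0034878, 2R) had a peak at each of its 2 start sites. The summit 200 bp inside the outer one (23554294 to 23554729) had a signal of 109, with ranks of 3675 and 2168 in replicates 1 and 3. The summit 294 bp inside the inner one (23551039 to 23551474) had a signal of 94.5, with ranks of 3354 and 4433. Replicate 3 ranked the outer site higher and replicate 1 the inner one, so their order was not settled by these data. Replicate 1 had no call with a summit within 100 bp of either. Its ranks are of overlapping calls whose summits lay further away. The inner summit was 56 bp from the TSS of Dcp-1, a caspase gene that starts inside pita. The strongest summit within 5000 bp of pita (signal 196) lay in the 5′ UTR of wmd, 3436 bp from the nearest start site of pita.

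At su(Hw) (FBgn0003567, 3R), a zinc finger gene whose product binds the insulator within the gypsy retrotransposon, no optimal summit was found within 5000 bp. The calls made on both replicates together held 4 within 1000 bp of its TSS, with signals from 25.6 to 31.0, and the best ranked 17387. Replicate 1 had a single call there, at rank 15777, and replicate 3 had 2, at ranks 9423 and 22576. These calls lay in lists that include background, far below the lowest optimal signal of 77.9. The strongest pooled call within 5000 bp of the gene, 2678 bp upstream of the TSS, had a signal of 61.4 and ranked 7263. It ranked 4052 in replicate 1 but 27581 in replicate 3, and its pooled signal was also below that limit. A peak above that limit was therefore not detected at this gene, which also has a head-to-head neighbour, Polr2I, 500 bp away.

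Of the promoter element factors, Dref ranked second in the set. Its peak (FBgn0015664, 2L, 9967120 to 9967404) had a signal of 333 and a rank of 378, with ranks of 395 in replicate 1 (signal 164) and 340 in replicate 3 (signal 177). The summit lay 12 bp upstream of the Dref TSS and 72 bp upstream of the TSS of RpL13, a ribosomal protein gene whose head-to-head start site is 84 bp from that of Dref. A peak this wide (285 bp) covers both starts. M1BP (FBgn0037621) had a weak peak (3R, 8731837 to 8732272; signal 102, rank 3622), 357 bp upstream of its TSS. That summit was 36 bp from the TSS of CG8202, its head-to-head neighbour at 393 bp. Replicate 1 ranked it 2520 (signal 65.3) and replicate 3 ranked it 6905 (signal 35.4), the widest gap among the strongest promoter peaks of the 9 genes.

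**Figure D2:**
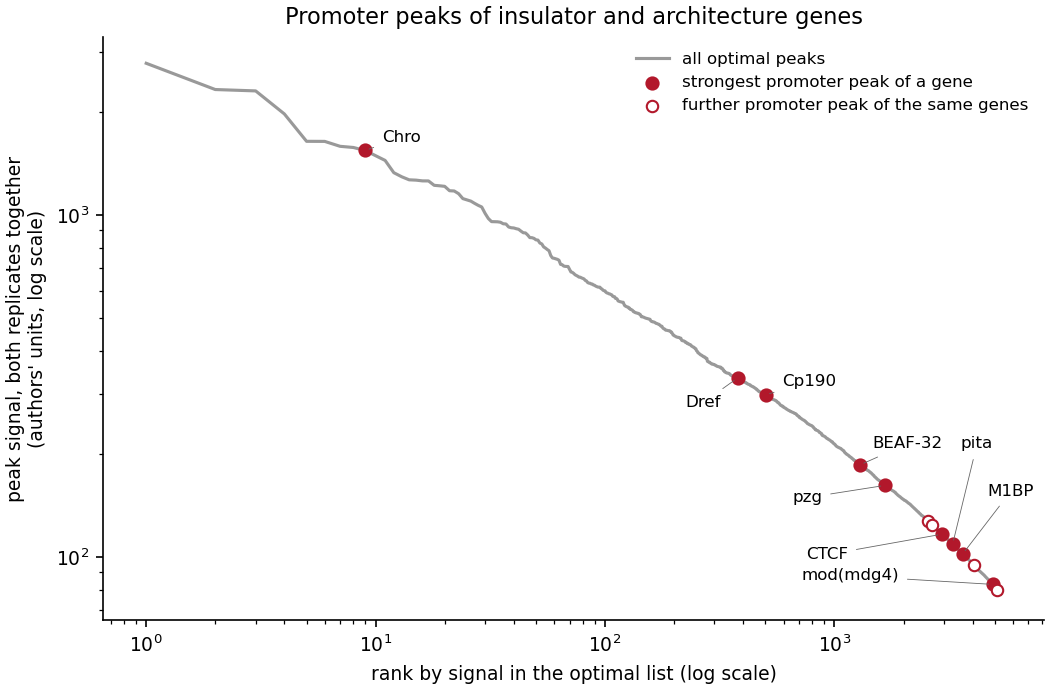
Peak signal (vertical, log scale) against rank in the optimal list (horizontal, log scale) for all 5321 peaks (grey line) and the 13 promoter peaks of the genes (filled: the strongest of each gene). Chro stands at rank 9, Dref and Cp190 at 378 and 501, and the other 6 genes between 1293 and 4901.

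The strongest promoter signals of the 9 genes spanned 18.6-fold, from Chro to mod(mdg4). Their median was 162, against 138 for all genes with a promoter peak (interquartile range 102 to 210). Of the 9 genes, 5 were above that median and 3 (Chro, Dref and Cp190) above the upper quartile. Apart from Chro, the set was thus spread over the range of bound genes. Only Chro, BEAF-32 and pzg, in places 1, 4 and 5, kept the same place in the order of the pooled list and of both replicates. Dref and Cp190 exchanged places 2 and 3 between the replicates. In the block of places 6 to 9, M1BP went from place 6 in replicate 1 to place 9 in replicate 3. Both replicates ordered the other genes of that block as pita, CTCF and mod(mdg4), while the pooled list had CTCF before pita. Whether neighbours inside those 2 blocks differed beyond the spread between replicates was not tested. Across all 5304 optimal peaks matched in both replicates, log2 signal in replicate 1 minus that in replicate 3 had an SD of 0.48. The difference was -0.06 at Chro and 0.88 at M1BP.

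**Figure D3:**
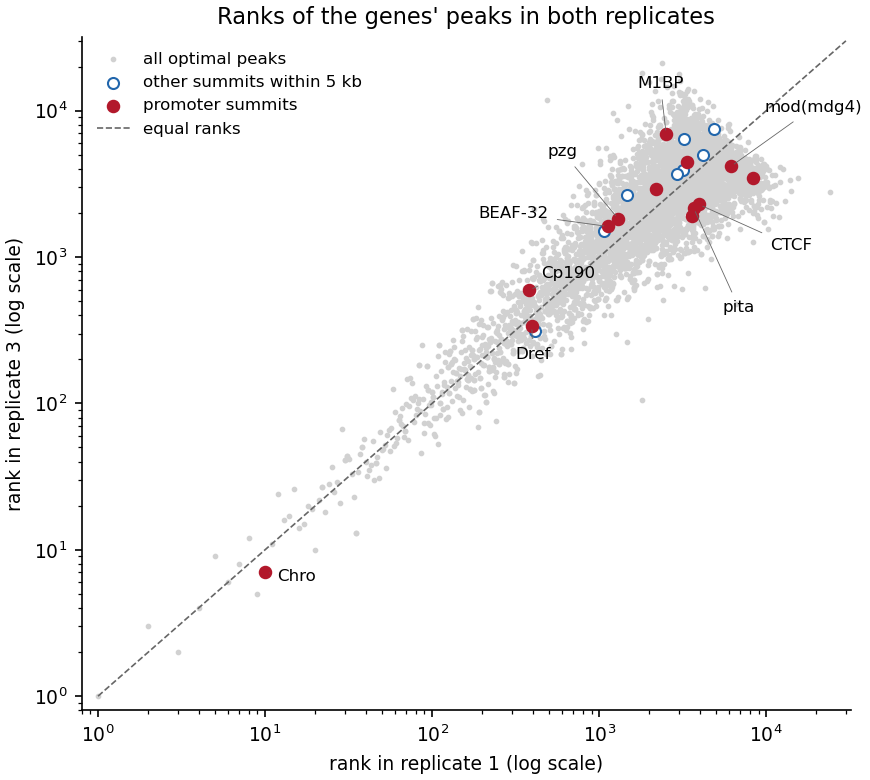
Rank in replicate 1 (horizontal) against rank in replicate 3 (vertical), both on log scales, for all optimal peaks (grey) and the 21 summits near the 10 genes. Labels mark the strongest promoter summit of each gene. Chro lies at ranks 10 and 7, while M1BP (2520 and 6905) lies far from the dashed line of equal ranks.

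Shared promoters were about as common among the bound genes of the set as among all bound genes. A head-to-head protein-coding neighbour has a start site on the opposite strand within 1000 bp upstream. Such a neighbour was annotated for 6 of the 10 genes (Chro, Cp190, su(Hw), Dref, M1BP and pzg). The share was 36.2% among all protein-coding genes, which is the comparison for all 10. It was 61.1% among those with a promoter peak (2584 of 4226). Of the 6 genes, su(Hw) had no promoter peak and falls outside that second comparison. Over the genome, 51.1% of genes with such a neighbour had a promoter peak, against 18.5% of the others, where both genes of a pair can be counted for 1 peak. Of the 13 promoter summits, 4 were nearer to the start site of another protein-coding gene: those at M1BP and pzg, the weaker one at Cp190 and the inner one at pita. That share was not counted over all promoter summits, so it is a description of these genes. By nearest gene alone, 22.2% of all protein-coding genes had a promoter peak, in place of 30.3%. Which gene of a pair a peak acts on was not tested. The 8 summits outside the promoters were each 27 to 191 bp from the TSS of another protein-coding gene, and so lay at promoters too. Most summits of the optimal list did so: 3784 of all 5321 were promoter summits. At the edges of the rule, the mod(mdg4) summit at 994 bp was the last one inside 1000 bp and the BEAF-32 summit at 1105 bp the first one outside, 59 bp from the TSS of Spred. The nearest calls below the optimal list were 1 near M1BP (signal 77.6, rank 5352) and 1 in an intron of mod(mdg4) (signal 77.2, rank 5394).

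The CGATA core recognised by BEAF-32 was found close to the summits of several of these promoters. Within 50 bp on either side, on either strand, it was present at 7 of the 13 promoter summits. The same was true of 26.5% of all 3784 promoter summits and of 23.6% of windows of the same width on all 19252 protein-coding TSSs. It lay at the strongest promoter summit of 5 of the 9 genes: Chro, Dref, pzg, CTCF and pita. At Chro it covered the summit, at Dref it was 1 bp away and at pzg 3 bp away. A match within 5 bp was present at 3 of 13 summits of the set and at 5.97% of all promoter summits. These distances depended on the position of the summit, which differed in precision between these 3 genes. The strongest overlapping call at Chro had its summit 1 bp away in replicate 1 and at the same base in replicate 3, so the match lay at the summit in both. At Dref the replicate summits were 48 bp downstream and 47 bp upstream of the pooled one, and at pzg 71 bp upstream and 55 bp downstream. The strongest promoter summits of Cp190, BEAF-32 and M1BP, none of which had a CGATA within 50 bp, moved by 1 to 13 bp. That of mod(mdg4), also without a CGATA there, moved by 139 bp in replicate 1 and 17 bp in replicate 3. At pita the shifts were 177 and 4 bp, and at CTCF 47 and 24 bp. The median shift of the 9 genes was 47 bp in replicate 1 and 13 bp in replicate 3. Over all optimal peaks it was 18 bp in replicate 1 and 13 bp in replicate 3. With the 5321 strongest calls of 1 replicate alone, the count of 5 genes fell to 2 (replicate 1) and 3 (replicate 3). At the matched summits, a CGATA lay within 50 bp at Chro, CTCF and mod(mdg4) in replicate 1. In replicate 3 it did so at Chro, Dref and pita, so only Chro had one in both. The mod(mdg4) call, at rank 6139 in replicate 1, was outside those strongest calls.

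The full DRE and Motif 1 were not found within 50 bp of any of the 13 promoter summits. Among all promoter summits, 4.84% had a DRE there and 2.25% had Motif 1 (GGTCACACT). On all TSSs the shares were 4.48% and 3.64%. A DRE was present a little further out at 2 genes, where 8.67% of all promoter summits had one within 100 bp. At Cp190 it overlapped the annotated TSS, 74 bp downstream of the stronger summit, with a further CGATA beside it. At mod(mdg4) it lay 47 bp upstream of the TSS and 84 bp upstream of the summit. Each DRE holds a CGATA on either strand, so these matches overlap. Of the 8 summits outside the promoters of the set, 3 had a DRE within 100 bp: the ppl summit near pzg (10 bp away), the Sec63 summit near CTCF (63 bp) and the wmd summit near pita (69 bp). Among all 5321 optimal summits, 6.30% had a DRE within 100 bp. These few summits are a description, and no excess was tested.

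In the printed sequences, Chro, Dref, Cp190 and the mod(mdg4) promoter share the run CTATCGA, which has TATCGA in common with the DRE. This run was picked after the sequences had been read. Within 100 bp it was present at the strongest promoter summit of those 4 genes among the 9, and at 12.4% of all promoter summits.

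Sites of the other factors were few. The searched spellings of the CTCF site (AGGTGGCGC or AGATGGCGC) were not found within 50 bp of any of the 13 summits, that of CTCF included. A match to either was present at 1.14% of all promoter summits. Other spellings were not searched. Read on the other strand, the printed CTCF window holds AGATGGCGC with G in place of its T. The search therefore does not settle whether a CTCF site lies near that summit. The core TGCATA of the su(Hw) site was found at 1 summit, that of the outer start site of pita, against 5.97% of all promoter summits. The GAGA repeat (GAGAG) was found at 2 of 13 summits against 12.1%, and the E-box CAGCTG at 1 of 13, that of M1BP, against 6.98%. The CRE half-site TGACGT, a core of many bZIP sites, was found at 2 of 13, against 2.67% of all promoter summits. They were the stronger Cp190 summit, 27 bp away, and the weak mod(mdg4) summit at the TSS, 15 bp away. The palindrome TGACGTCA was found at none of the 13 and at 0.264% of all promoter summits. A match is a run of letters and not a measured binding site.

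**Figure D4:**
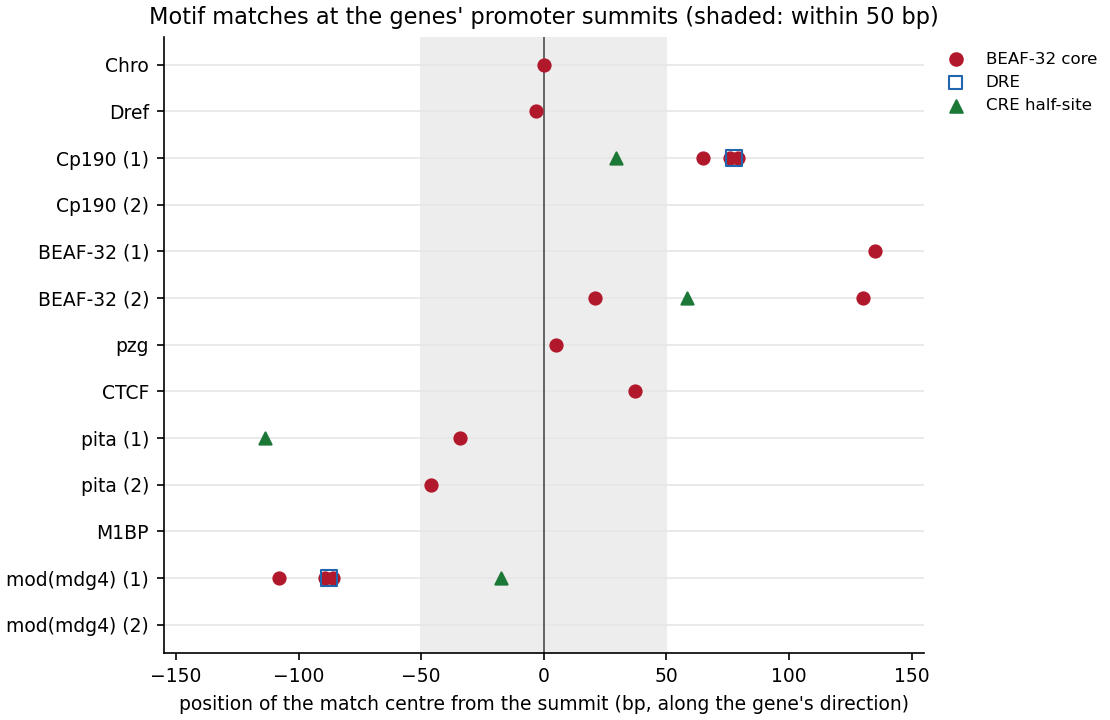
Positions of matches to the CGATA core (circles), the DRE (squares) and the CRE half-site (triangles) from each of the 13 promoter summits (bp, along the direction of the gene; 1 and 2 mark the stronger and the weaker summit of a gene). The shaded zone is 50 bp on either side. The core covers the summit at Chro, while both squares, at Cp190 and mod(mdg4), lie outside the zone.

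A wider list of 44 genes with related functions gave a mixed picture, with 23 of 44 (52.3%) carrying a promoter peak beside the 30.3% of all protein-coding genes. Cofactors of insulators and promoters had the highest share, with 12 of 14. The count was 10 by nearest gene alone and 8 in the 2660 peaks of highest signal, where 17.5% of all protein-coding genes had a peak. The list was chosen with earlier results of these data known, so the counts are a description. They were led by the gene of heterochromatin protein HP1a (signal 221), fs(1)h, a BET bromodomain gene (209), E(bx), for the large NURF remodeller subunit (189), l(3)mbt, for a chromatin repressor (180), and JIL-1, for a histone H3 kinase of open chromatin (179). The M1BP coactivator gene gfzf was the weakest (79.4) and shared its peak with Sas-4, and HIPP1 and Topors had no promoter peak. The strongest peaks at the HP1a gene, fs(1)h, E(bx) and l(3)mbt were each shared with a neighbour, Ssb-c31a, mys, mthl14 and CG5934.

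Cohesin and condensin genes had promoter peaks at 5 of 10. The cohesin regulator gene pds5 had a signal of 481 and a rank of 167, and Cap-H2, for a condensin II subunit, had 304 and a rank of 467. The peaks at the cohesin ring gene SMC1 (146), at the cohesin release gene wapl (105) and at the loader gene Nipped-B (86.8) were weaker. The peaks at pds5, Cap-H2 and SMC1 were shared with Mppe, MED7 and Hsp68. The remaining core genes vtd, SMC3 and SA1 and the condensin genes Cap-D3 and Cap-G had none. The count was 7 without replicate 1, 6 without replicate 3 and 3 in the 2660 peaks of highest signal. The pds5 peak was stronger than the strongest promoter peak of each of the 10 genes other than Chro.

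Other DNA-binding insulator proteins had promoter peaks at 3 of 12 genes, a share near the background of 30.3%. They were Trl, for the GAGA factor (signal 338, rank 363), Zaf1 (129) and Clamp (129), a GA-repeat binding protein gene. The peaks at Trl and Zaf1 were shared with CG42507 and CG14711. Ibf1, Ibf2, ZIPIC, dwg, Elba1, Elba2, Elba3, insv and Opbp had none. Of the activators of housekeeping genes in the NSL complex and nearby functions, 3 of 8 had a peak: Nup98-96, a nucleoporin gene (350), nsl1, for the scaffold of the complex (225), and Brd8 (101). The peaks at Nup98-96 and Brd8 were shared with mbc and Cisd2. Rcd1, Rcd5, MBD-R2, mof and wds had none.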

How the data were processed

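Peak lists on dm6 were used as deposited. Per the deposited notes, the authors derived each replicate list from 1 alignment and a control file, the pooled list from both alignments, and the optimal list from all of these after a threshold on the irreproducible discovery rate. Neither an aligner nor a peak caller is named in the labels or notes used here. The signal was computed by the authors per peak and was deposited beside each summit's position. Ranks were taken within each list. The dm3 lists were not used. Genes and TSSs came from Ensembl release 115, without transposable elements, and bases from RefSeq Release 6, the assembly of dm6. A replicate call was matched to a peak by an overlap of at least 1 bp, taking the strongest. The 9 motifs were searched on both strands, and 1 was added later. The list name SA was read as SA1. Counting was tested on simulated summits and motifs. Python 3.11.15 and pandas 2.3.3 were used.

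The members, lists and tests were chosen with earlier results of these data known. The named genes were all members, the 5 strongest of each wider group and those without a peak, other protein-coding genes within 1000 bp of a member promoter summit, and the 3 genes closest in replicate signals to the strongest member. Genes named from summits outside the promoters, from the weakest cofactor and from start sites without a peak were added after their values were seen. Alternatives were promoter distances of 500 and 2000 bp, the nearest gene alone, the 2660 peaks of highest signal, each replicate left out, a gene distance of 2 kb, a motif distance of 100 bp, and replicate matching by summits within 100 bp.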

Additional observations from a re-analysis of the deposited data

How the results depend on the processing

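The count of 9 genes with a promoter peak stayed between 7 and 9 with distances of 500 and 2000 bp, with the nearest gene alone and with each replicate left out. M1BP and pzg had none by nearest gene, M1BP had none without replicate 1, mod(mdg4) had none without replicate 3, and su(Hw) had none under any of these. In the stricter list 5 of the 10 genes kept a promoter peak (CTCF, M1BP, mod(mdg4) and pita lost theirs), 2443 of all protein-coding genes had one (17.5%), and 9 summits lay within 5 kb of the 10 genes in place of 21. The share of all genes was 27.0% at 500 bp, 35.3% at 2000 bp and 22.2% by nearest gene. The wider list ranged from 16 to 26 genes. The count of genes with CGATA at the strongest promoter summit ranged from 2 to 3 with a replicate left out, and 2 genes had a DRE or Motif 1 within 100 bp in place of 0 within 50 bp. Counts in single replicates use the 5321 strongest calls of 1 list. Matching by summits within 100 bp kept 38 of the 42 replicate calls matched to the optimal summits near the 10 genes. All those lost were in replicate 1: at both promoter summits of pita, the mod(mdg4) summit at the TSS and the BEAF-32 summit at 1105 bp. Read depth was not stated, so a missing peak was not detected at the depth of these lists.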
